A study of Mus musculus with 8 samples.

Results

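The 44 genes described here encode phase II conjugation enzymes, which attach glutathione, glucuronic acid or sulfate to drugs, hormones and metabolites. They were taken by symbol from 18194 genes on the arrays and not by their values. The symbols start with Gsta, Gstm, Gstp, Gstt, Gsto, Gstk or Gstz (20 cytosolic or mitochondrial glutathione S-transferases), Mgst (3 microsomal glutathione transferases), Ugt2 (8 UDP-glucuronosyltransferases) or Sult (13 sulfotransferases). A further 11 genes with such symbols appear only on probe sets that name several genes: 8 Ugt1a genes, Gsta1, Ugt2a1 and Ugt2a2. They are not members, so no Ugt1 gene is a member, and those probe sets are given separately below.

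The series measured mice that carry or lack Col18a1, which encodes collagen XVIII, a proteoglycan of basement membranes and the source of endostatin. Adult marrow was flushed from the femurs and tibias of 3-month-old males, and fetal liver was dissociated at embryonic day 14.5 from embryos whose sex the labels call undetermined. In each tissue there were 2 arrays of Col18a1+/+ (wild-type) and 2 of Col18a1-/- (knockout) mice, all labelled as strain C57B6/J, and each array held total RNA of 2 pooled littermates. The labels give filtration and no sort for either suspension, so fetal liver holds hepatic and blood-forming cells together. Fetal liver and marrow arrays thus differ in organ and in age, and these cannot be told apart.

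Glutathione S-transferases join the tripeptide glutathione to reactive compounds, and several also reduce peroxides or isomerise metabolites. UDP-glucuronosyltransferases sit in the endoplasmic reticulum membrane and use UDP-glucuronic acid to make bilirubin, steroids, bile acids and drugs water soluble. Sulfotransferases use the donor PAPS to sulfate phenols, catecholamines, steroids and bile acids in the cytosol. Hepatocytes are the best known site of all 3 families, while some glutathione transferases are made in nearly every cell, blood cells included.

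Levels are log2 of the deposited RMA intensities (RMA is a summary of Affymetrix probes), and a difference of 1 is a doubling. Median intensities of the 8 arrays lay between 40.8 and 42.6, replicate arrays correlated across genes at 0.993 to 0.997 (genes are not replicates), and the lower quartile of all probe sets lay at 3.82 to 3.93, so levels near 4 or below are at the dim end of the arrays. Col18a1 itself was 7.84 and 7.85 in wild-type marrow, 5.63 and 5.99 in knockout marrow, 9.06 and 9.18 in wild-type fetal liver and 8.17 and 8.06 in knockout fetal liver. It was thus lower in the knockout arrays of both tissues, as labelled (-2.03 ± 0.13, adjusted p = 0.000866 in marrow, and -1.0 ± 0.13, adjusted p = 0.0437 in fetal liver), though still above the dim end. The X-linked Xist was 11.04 and 11.22 in the wild-type fetal livers and 4.61 to 5.03 in marrow and knockout fetal livers, while the Y-linked Eif2s3y was 3.29 and 3.00 in the wild-type fetal livers and 9.38 to 10.03 elsewhere. In fetal liver, genotype and this sex-linked difference therefore cannot be told apart, and the wild-type comparison of tissues carries it while the knockout comparison does not. The 2 arrays a group limit the precision of every value, and p-values measure the spread between pools of littermates.

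Of the 44 genes, 28 were higher and 1 was lower in wild-type fetal liver than in wild-type marrow (limma, adjusted p under 0.05 over all genes), against 30.5% higher and 19.2% lower (49.7% in all) of the 18194 genes. In the knockout, 25 were higher and 2 lower, against 28% and 19.6% (47.6% in all). The median difference over the 44 genes was 0.72 in wild-type and 0.71 in knockout, beside 0.13 and 0.10 over all genes. A rise of at least 4-fold that passed the test was seen for 11 of the 44 genes in each genotype, where 3.66% of all genes in wild-type and 3.47% in knockout did so. In both genotypes 26 members changed in the same direction, which 39.5% of all genes did. These comparisons share no arrays, but they share the estimate of the spread.

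By family, 16 of 20 cytosolic or mitochondrial glutathione S-transferases, 5 of 8 UDP-glucuronosyltransferases and 7 of 13 sulfotransferases were higher in wild-type fetal liver. Of all genes, 30.5% were higher there. The same counts in the knockout were 16, 5 and 4, where 28% of all genes were higher. The knockout share of sulfotransferases (30.8%) was thus near that of all genes. The 3 microsomal transferases went the other way or did not pass: Mgst2 was lower in both genotypes. Fetal liver and marrow arrays of wild-type mice did not overlap for 35 members, against 75.5% of all genes, and those of knockout mice did not overlap for 37, against 72.9%.

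Hepatoblast and hepatocyte markers moved with these differences. All 10 measured markers of a list of 12 were higher in fetal liver in both genotypes, with a median difference of 7.68 in wild-type and 7.74 in knockout. Their summed intensity was 8.04 to 8.29 (log2) on the marrow arrays and 16.29 to 16.37 on the fetal liver arrays, and albumin, Alb, was 3.85 to 4.95 in marrow. Markers of the abundant marrow cells fell instead: all 9 neutrophil and all 7 B lineage markers measured were lower in fetal liver in both genotypes. Of 7 erythroid markers, 1 was higher and 3 were lower in wild-type fetal liver, and 2 and 1 in knockout. Hba-a1 among them was at the dim end, 3.58 to 4.19 on all arrays, and gave 1 of the 2 higher calls in knockout. Of 7 endothelial markers, 5 were higher and 1 was lower in wild-type fetal liver, with a median of 1.64, and 6 were higher in knockout, with a median of 2.32. The part of cell content in the differences below was not tested, and in such bulk samples a change in the number of cells of a type and a change in RNA per cell cannot be told apart.

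**Figure D1:**
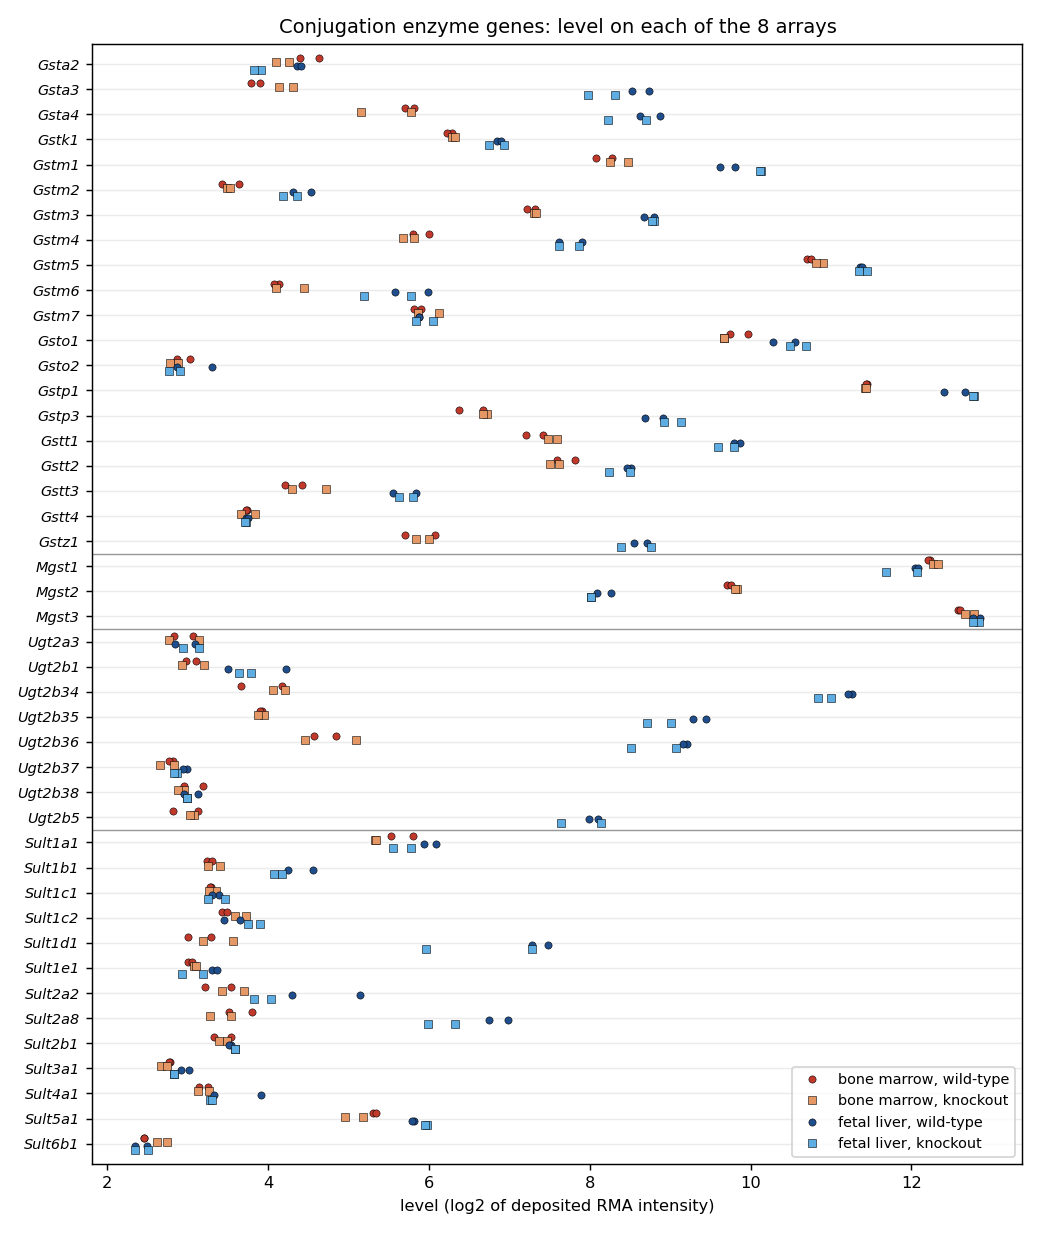
Level of each of the 44 genes (log2 of the deposited RMA intensity, horizontal axis) on each of the 8 arrays, marrow in red and orange, fetal liver in dark and light blue. Ugt2b34, Ugt2b35, Ugt2b36, Ugt2b5, Gsta3 and Sult1d1 show the widest gaps between the tissues, and 16 genes stay under 5 on all 8 arrays.

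The UDP-glucuronosyltransferases held 4 of the 5 largest rises among the 44 genes in wild-type, all in the Ugt2b subfamily. Ugt2b34 was 3.66 and 4.17 in wild-type marrow, 4.21 and 4.07 in knockout marrow, 11.26 and 11.21 in wild-type fetal liver and 10.84 and 11.00 in knockout fetal liver. All 4 fetal liver arrays thus lay far above all 4 marrow arrays, whose levels were at the dim end. The difference was 7.32 ± 0.16 (SE of the fit, 2 arrays a group, about 160-fold, adjusted p = 2.66e-09) in wild-type and 6.78 ± 0.16 (adjusted p = 3.64e-09) in knockout, rank 28 and rank 36 among 18194 genes ordered by rise in fetal liver. Its dimmer probe set gave 7.94 ± 0.17 and 7.20 ± 0.17. The marrow levels of Ugt2b34, Ugt2b35, Ugt2b5, Gsta3, Sult1d1 and Sult2a8 were not shown to lie above background, so their folds and ranks compare measured intensities and give no exact ratio of RNA.

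Their promoters were read beside these levels because the Ugt2b genes lie next to each other on chromosome 5 and split into high and low genes in fetal liver. The 120 bases before the start of each of the 7 Ugt2b genes, from RefSeq's promoter table (GRCm38.p6), are printed 5′ to 3′ on the strand of the gene. Capitals mark a match to GTTANNNNNTAAC, a palindrome of the kind bound by the HNF1 homeodomain factors of liver, which reads the same on both strands. The first 4 lines are genes high in fetal liver and the last 3 are genes that stayed low.
Ugt2b34, chr5:86906938-86907057, minus strand: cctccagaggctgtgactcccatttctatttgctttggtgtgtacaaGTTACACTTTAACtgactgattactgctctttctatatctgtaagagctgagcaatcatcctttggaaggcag
Ugt2b35, chr5:87000740-87000859, plus strand: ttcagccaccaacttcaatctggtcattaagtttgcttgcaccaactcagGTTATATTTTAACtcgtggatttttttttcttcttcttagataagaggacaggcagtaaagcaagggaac
Ugt2b36, chr5:87092556-87092675, minus strand: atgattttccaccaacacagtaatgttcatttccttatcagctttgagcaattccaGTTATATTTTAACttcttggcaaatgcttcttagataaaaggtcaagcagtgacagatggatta
Ugt2b5, chr5:87140341-87140460, minus strand: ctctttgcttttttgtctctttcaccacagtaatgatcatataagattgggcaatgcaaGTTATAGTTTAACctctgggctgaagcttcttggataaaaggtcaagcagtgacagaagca
Ugt2b1, chr5:86926504-86926623, minus strand: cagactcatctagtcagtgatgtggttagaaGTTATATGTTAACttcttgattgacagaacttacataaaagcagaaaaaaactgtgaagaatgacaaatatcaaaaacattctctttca
Ugt2b37, chr5:87254789-87254908, minus strand: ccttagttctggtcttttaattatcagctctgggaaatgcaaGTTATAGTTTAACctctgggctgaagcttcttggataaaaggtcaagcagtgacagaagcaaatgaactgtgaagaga
Ugt2b38, chr5:87424204-87424323, minus strand: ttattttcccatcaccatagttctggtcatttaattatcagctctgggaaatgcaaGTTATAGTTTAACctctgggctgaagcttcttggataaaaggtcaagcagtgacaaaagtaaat
The motif was picked after these sequences were seen. It was found in all 7 Ugt2b promoters, at 89 to 49 bases before the start, and in no other member: 7 of 52 member promoters (13.5%, from the 40 of 44 members with an entry) and 101 of 32851 promoters in all (0.307%) held it within 250 bases before the start. Both the high and the low Ugt2b genes had it. The promoters of Ugt2b37 and Ugt2b38, low on every array, shared an unbroken run of 82 bases with each other, and that of Ugt2b5, high in fetal liver, shared a run of 68 bases with Ugt2b37. Of the other 2 motifs searched on both strands, AGGTCA, a site of nuclear receptors, was in 17.3% of member promoters and 14.0% of all, and TGACNNNGC, the core of the antioxidant response element, was in 7.69% and 10.2%. No match of a motif overlapped that of another. A match here describes letters in a window and shows no binding.

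The other 3 high genes followed Ugt2b34. Ugt2b35 was 3.93 and 3.90 in wild-type marrow, 3.95 and 3.88 in knockout marrow, 9.29 and 9.45 in wild-type fetal liver and 8.71 and 9.01 in knockout fetal liver. Its rise was 5.45 ± 0.12 (43.9-fold, adjusted p = 3.09e-09) in wild-type and 4.95 ± 0.12 (30.9-fold, adjusted p = 4.96e-09) in knockout. Both marrow genotypes were within 0.1 of each other, while the knockout fetal livers were below both wild-type ones. The fetal liver genotypes did not overlap, in either direction, for 45.8% of all genes, and this difference did not pass (limma, adjusted p = 0.142). Ugt2b5 rose from 2.81 and 3.13 in wild-type marrow to 7.98 and 8.10 in wild-type fetal liver, and from 3.07 and 3.03 to 7.64 and 8.14 in knockout. Ugt2b36 rose from 4.57 and 4.84 to 9.20 and 9.16 in wild-type, and from 5.09 and 4.46 to 8.51 and 9.07 in knockout. These are rises of 33.6-fold and 22.2-fold in wild-type (adjusted p = 2.55e-08 and 3.54e-07), and the tissues did not overlap for either gene in either genotype.

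The remaining Ugt2 genes stayed dim. Ugt2b1, between Ugt2b34 and Ugt2b35 on the chromosome, was 2.98 and 3.10 in wild-type marrow, 2.93 and 3.20 in knockout marrow, 3.50 and 4.22 in wild-type fetal liver and 3.63 and 3.78 in knockout fetal liver. Its difference passed in both genotypes (0.82 ± 0.21, adjusted p = 0.00983 in wild-type, and 0.65 ± 0.21, adjusted p = 0.0307 in knockout), but that in wild-type did not without replicate 1 of wild-type marrow, and that in knockout did not with quantile normalization repeated, without either knockout fetal liver array or without replicate 1 of knockout marrow. Ugt2b37 ranged from 2.65 to 3.00, Ugt2b38 from 2.88 to 3.19 and Ugt2a3 from 2.77 to 3.14 over the 8 arrays, with no difference that passed. Ugt2a1 and Ugt2a2, which follow Ugt2b38 on the chromosome, share a probe set that was 2.97 to 3.47. Its difference passed in knockout (0.36 ± 0.12, adjusted p = 0.0388 over all probe sets) and not in wild-type (-0.02 ± 0.12, adjusted p = 0.934). Genes high and low in fetal liver thus stood side by side in the cluster, with the members in the order Ugt2b34, Ugt2b1, Ugt2b35, Ugt2b36, Ugt2b5, Ugt2b37, Ugt2a3 and Ugt2b38. Their sequences are alike, so a probe set named for a single gene may also bind RNA of a neighbour, and the level of each is uncertain to that extent.

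The probe sets shared by the 8 Ugt1a genes moved the opposite way. These genes, of which Ugt1a1 makes the enzyme that conjugates bilirubin, are variants of a single locus with a common end. The brightest of the 3 probe sets was 9.98 and 9.96 in wild-type marrow, 10.03 and 10.08 in knockout marrow, 8.85 and 9.03 in wild-type fetal liver and 8.36 and 8.59 in knockout fetal liver. It was lower in fetal liver by -1.03 ± 0.12 in wild-type and -1.58 ± 0.12 in knockout (adjusted p = 0.000111 and 7.79e-06, over all 45101 probe sets). The other 2 shared probe sets gave differences of -0.69 ± 0.14 and -0.90 ± 0.15 in wild-type and -1.16 and -1.25 in knockout, all 4 passing. No marrow array overlapped a fetal liver array on any of the 3. Which Ugt1a gene gave this signal cannot be read from shared probe sets.

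**Figure D2:**
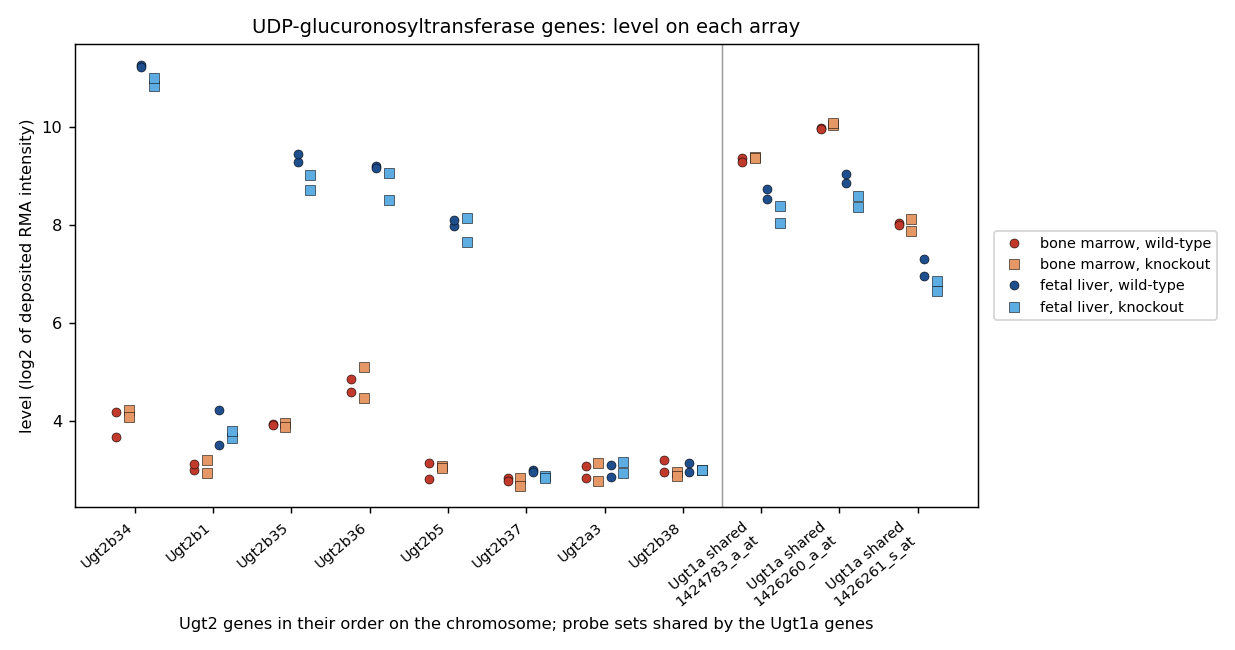
Level (log2 of the deposited RMA intensity) on each array for the 8 Ugt2 members in chromosome order and for the 3 probe sets shared by the Ugt1a genes, right of the line. Ugt2b34, Ugt2b35, Ugt2b36 and Ugt2b5 were high in fetal liver, Ugt2b37, Ugt2a3 and Ugt2b38 were dim on all 8 arrays, and the Ugt1a probe sets were higher in marrow.

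Among the glutathione S-transferases, the alpha class held the widest difference. Gsta3, the alpha transferase known for clearing aflatoxin epoxide in mice, was 3.79 and 3.90 in wild-type marrow, 4.14 and 4.31 in knockout marrow, 8.53 and 8.73 in wild-type fetal liver and 7.98 and 8.32 in knockout fetal liver. Its rise was 4.79 ± 0.14 (27.6-fold, adjusted p = 1.14e-08) in wild-type and 3.92 ± 0.14 (15.2-fold, adjusted p = 3.65e-08) in knockout. Its dimmer probe set gave smaller rises of 3.17 ± 0.29 and 2.83 ± 0.29, 9.03-fold and 7.11-fold, which also passed. Gsta4, which conjugates the lipid peroxidation product hydroxynonenal, was 5.81 and 5.70 in marrow against 8.87 and 8.62 in fetal liver in wild-type and 5.16 and 5.78 against 8.22 and 8.70 in knockout. That is 7.94-fold and 7.98-fold (adjusted p = 3.71e-06 and 3.83e-06), nearly the same in both genotypes. In the pairs of values below, marrow stands before fetal liver. Gsta2 stayed between 3.83 and 4.63 on the 8 arrays and did not pass in either genotype. The probe set shared by Gsta1, Gsta2 and Gm3776 was 3.41 to 3.69 and did not pass in either genotype.

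The mu class, a row of genes on chromosome 3, rose in smaller steps. Gstm1, the main mu transferase of mouse liver, was 8.08 and 8.27 in wild-type marrow, 8.48 and 8.25 in knockout marrow, 9.62 and 9.80 in wild-type fetal liver and 10.13 and 10.12 in knockout fetal liver, a rise of 2.90-fold and 3.39-fold. Gstm4 was 5.80 and 6.0 against 7.61 and 7.90 in wild-type and 5.68 and 5.81 against 7.87 and 7.62 in knockout. Gstm3 was 7.21 and 7.32 against 8.67 and 8.80, and 7.30 and 7.34 against 8.79 and 8.77. In each of these genes all fetal liver arrays lay above all marrow arrays, with adjusted p between 2.15e-06 and 7e-06 in the 6 tests. Other probe sets also rose and passed in both genotypes, by 0.99 to 1.66 in wild-type for the 3 of Gstm1 and by 0.61 ± 0.12 for that of Gstm3. The latter was at the dim end, 3.37 and 3.18 in wild-type marrow and 3.77 and 3.99 in wild-type fetal liver. The level of Gstm3 thus depends on the probe set. Gstm6 rose from 4.13 and 4.08 to 5.58 and 5.98 in wild-type and from 4.10 and 4.45 to 5.77 and 5.20 in knockout. Gstm2 rose at the dim end, from 3.42 and 3.63 to 4.30 and 4.53 and from 3.48 and 3.52 to 4.35 and 4.19. Gstm5, already bright in marrow, was 10.70 and 10.75 against 11.36 and 11.39 in wild-type and 10.90 and 10.81 against 11.35 and 11.45 in knockout, differences of 0.65 ± 0.10 and 0.54 ± 0.10 (adjusted p = 0.000387 and 0.00132).

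Gstm7 depended on the probe set. The brighter, which stands for the gene in the counts above, was 5.82 to 6.13 on the 8 arrays with differences of 0.01 and -0.05. The dimmer was 3.82 and 4.31 in wild-type marrow, 3.95 and 3.97 in knockout marrow, 6.15 and 6.98 in wild-type fetal liver and 6.58 and 6.25 in knockout fetal liver, a rise of 2.50 ± 0.26 and 2.45 ± 0.26 (adjusted p = 4.87e-05 and 6.29e-05 over all probe sets). The 2 probe sets disagree, so no direction is given for Gstm7. Mu class genes are close copies, and probes of one may bind RNA of another.

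Pi, theta, zeta, omega and kappa transferases also rose. Gstp1, the pi transferase found in most tissues, was bright in marrow and tight between replicates, at 11.45 and 11.43 in wild-type and 11.43 and 11.43 in knockout, against 12.41 and 12.66 in wild-type and 12.77 and 12.77 in knockout fetal liver. That is a rise of 2.14-fold and 2.54-fold (adjusted p = 2.84e-05 and 8.01e-06). Its relative Gstp3 was 6.37 and 6.67 against 8.69 and 8.91 in wild-type, and 6.72 and 6.67 against 9.13 and 8.92 in knockout, 4.85-fold and 5.01-fold. The tissues did not overlap for either gene.

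Gstt1, a theta transferase that acts on small halogenated compounds, was 7.41 and 7.21 against 9.80 and 9.87 in wild-type and 7.48 and 7.59 against 9.59 and 9.80 in knockout, 5.74-fold and 4.47-fold. Gstt3 was 4.43 and 4.21 against 5.55 and 5.84, and 4.72 and 4.29 against 5.80 and 5.63. Gstt2 was 7.81 and 7.59 against 8.52 and 8.46, and 7.62 and 7.50 against 8.24 and 8.50, so the theta genes rose by 0.79 to 2.52 except Gstt4, which stayed between 3.66 and 3.83. Gstz1, which isomerises maleylacetoacetate in the breakdown of tyrosine, was 6.07 and 5.70 against 8.55 and 8.71, and 5.83 and 6.0 against 8.39 and 8.77, a rise of 6.69-fold and 6.31-fold. All of these rises passed, and the tissues did not overlap for any of the 4 genes that rose.

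Gsto1, an omega enzyme with thioltransferase activity, was 9.97 and 9.74 in wild-type marrow, 9.67 and 9.67 in knockout marrow, 10.28 and 10.55 in wild-type fetal liver and 10.49 and 10.68 in knockout fetal liver. The differences were 0.56 ± 0.13 (adjusted p = 0.00613) and 0.91 ± 0.13 (adjusted p = 0.000348), and that in wild-type did not pass without replicate 2 of wild-type marrow. Its other probe set, at 9.44 to 9.95 on all arrays, gave 0.39 ± 0.11 in wild-type and 0.42 ± 0.11 in knockout. Both passed (adjusted p = 0.0143 and 0.011 over all probe sets). On the brighter probe set the rise in knockout exceeded that in wild-type by 0.36 ± 0.19 (adjusted p = 0.47). The rise of Gsto1 was thus not shown to depend on genotype. Gstk1, the kappa enzyme of mitochondria and peroxisomes, was 6.28 and 6.22 against 6.85 and 6.90 in wild-type and 6.29 and 6.32 against 6.94 and 6.74 in knockout, differences of 0.62 ± 0.10 and 0.54 ± 0.10 that both passed. Gsto2 stayed between 2.77 and 3.31 and did not pass.

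The 3 microsomal transferases, membrane proteins unrelated in fold to the cytosolic ones, were bright in both tissues on the probe sets that stand for them, and none of these rose. Mgst2, which can also make leukotriene C, was 9.70 and 9.75 in wild-type marrow, 9.83 and 9.81 in knockout marrow, 8.09 and 8.27 in wild-type fetal liver and 8.02 and 8.01 in knockout fetal liver. It was the single member to fall in both genotypes, by 2.92-fold and 3.50-fold (adjusted p = 1.69e-06 and 5.97e-07). Mgst1 was 12.23 and 12.21 against 12.05 and 12.09 in wild-type, and 12.27 and 12.33 against 11.68 and 12.07 in knockout. Its difference was -0.15 ± 0.13 (adjusted p = 0.363) and -0.42 ± 0.13 (adjusted p = 0.0237), and the latter did not pass without replicate 1 of knockout fetal liver, without either knockout marrow array, with knockout arrays alone or as a mean of its probe sets. Mgst3 was 12.58 and 12.61 against 12.77 and 12.85 in wild-type and 12.67 and 12.78 against 12.84 and 12.76 in knockout, with adjusted p = 0.0983 and 0.56. Its dimmer probe set was 5.72 and 5.71 against 6.35 and 6.21 in wild-type, where it passed (0.57 ± 0.15, adjusted p = 0.0114 over all probe sets), and 5.63 and 5.83 against 6.29 and 5.91 in knockout, where it did not (adjusted p = 0.0755), so whether Mgst3 rose depends on the probe set.

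Sulfotransferases split into a few genes with clear rises and many dim ones. Sult1d1, an enzyme for catecholamines, was 3.29 and 3.01 in wild-type marrow, 3.19 and 3.57 in knockout marrow, 7.48 and 7.28 in wild-type fetal liver and 5.96 and 7.28 in knockout fetal liver. It rose 18.8-fold in wild-type and 9.47-fold in knockout (adjusted p = 8.32e-06 and 5.14e-05), and the knockout fetal livers differed from each other more than for any other of the 44 genes. Its dimmer probe set was 3.23 and 2.97 against 5.85 and 5.59 in wild-type and 3.11 and 3.28 against 5.63 and 5.47 in knockout, smaller rises of 6.14-fold and 5.11-fold with no such gap between the knockout arrays. Sult2a8, a bile acid sulfotransferase of mouse liver, was 3.52 and 3.80 against 6.75 and 6.98 in wild-type and 3.54 and 3.28 against 5.99 and 6.33 in knockout. Its rise was 9.23-fold and 6.73-fold (adjusted p = 3.18e-07 and 8.52e-07), with both knockout fetal livers below both wild-type ones. For 45.8% of all genes the fetal liver genotypes did not overlap, and the genotype difference of Sult2a8 did not pass (limma, adjusted p = 0.131).

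Other sulfotransferases moved less. Sult1b1, which acts on thyroid hormones, was 3.25 and 3.31 against 4.56 and 4.24 in wild-type and 3.26 and 3.41 against 4.08 and 4.17 in knockout (1.12 ± 0.13 and 0.79 ± 0.13). Sult5a1 was 5.30 and 5.34 against 5.81 and 5.78 in wild-type and 4.95 and 5.18 against 5.97 and 5.95 in knockout (0.47 ± 0.11 and 0.90 ± 0.11). Both genes passed in both genotypes. Sult2a2, a relative of Sult2a8, was 3.54 and 3.21 against 5.14 and 4.30 in wild-type, where it passed (adjusted p = 0.00148), and 3.43 and 3.70 against 4.04 and 3.82 in knockout, where it did not (adjusted p = 0.263). The test of the difference between the 2 genotypes gave adjusted p = 0.344, so the tissue difference was not shown to depend on genotype.

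Sult1a1, the phenol sulfotransferase, and Sult1e1, the estrogen sulfotransferase, passed narrowly in wild-type alone. Sult1a1 was 5.80 and 5.52 against 5.94 and 6.09 in wild-type and 5.33 and 5.34 against 5.55 and 5.78 in knockout (0.35 ± 0.13, adjusted p = 0.0473, and 0.33 ± 0.13, adjusted p = 0.0606). Sult1e1 was 3.00 and 3.06 against 3.31 and 3.37, and 3.08 and 3.10 against 2.92 and 3.19 (0.31 ± 0.11, adjusted p = 0.0472, and -0.03 ± 0.11, adjusted p = 0.841). The wild-type call of each was lost in 9 alternatives at the same threshold, and also where a difference of at least 1 was required. Both calls were lost without either wild-type fetal liver array, either knockout marrow array or replicate 2 of wild-type marrow, with a trended robust variance, and when all single-gene probe sets were tested. That of Sult1a1 was also lost with wild-type arrays alone and with the replicate block, and that of Sult1e1 without replicate 1 of wild-type marrow and with quantile normalization repeated. Sult1c1, Sult1c2, Sult2b1, Sult3a1, Sult4a1 and Sult6b1 lay between 2.34 and 3.91 on all arrays and did not pass in either genotype.

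**Figure D3:**
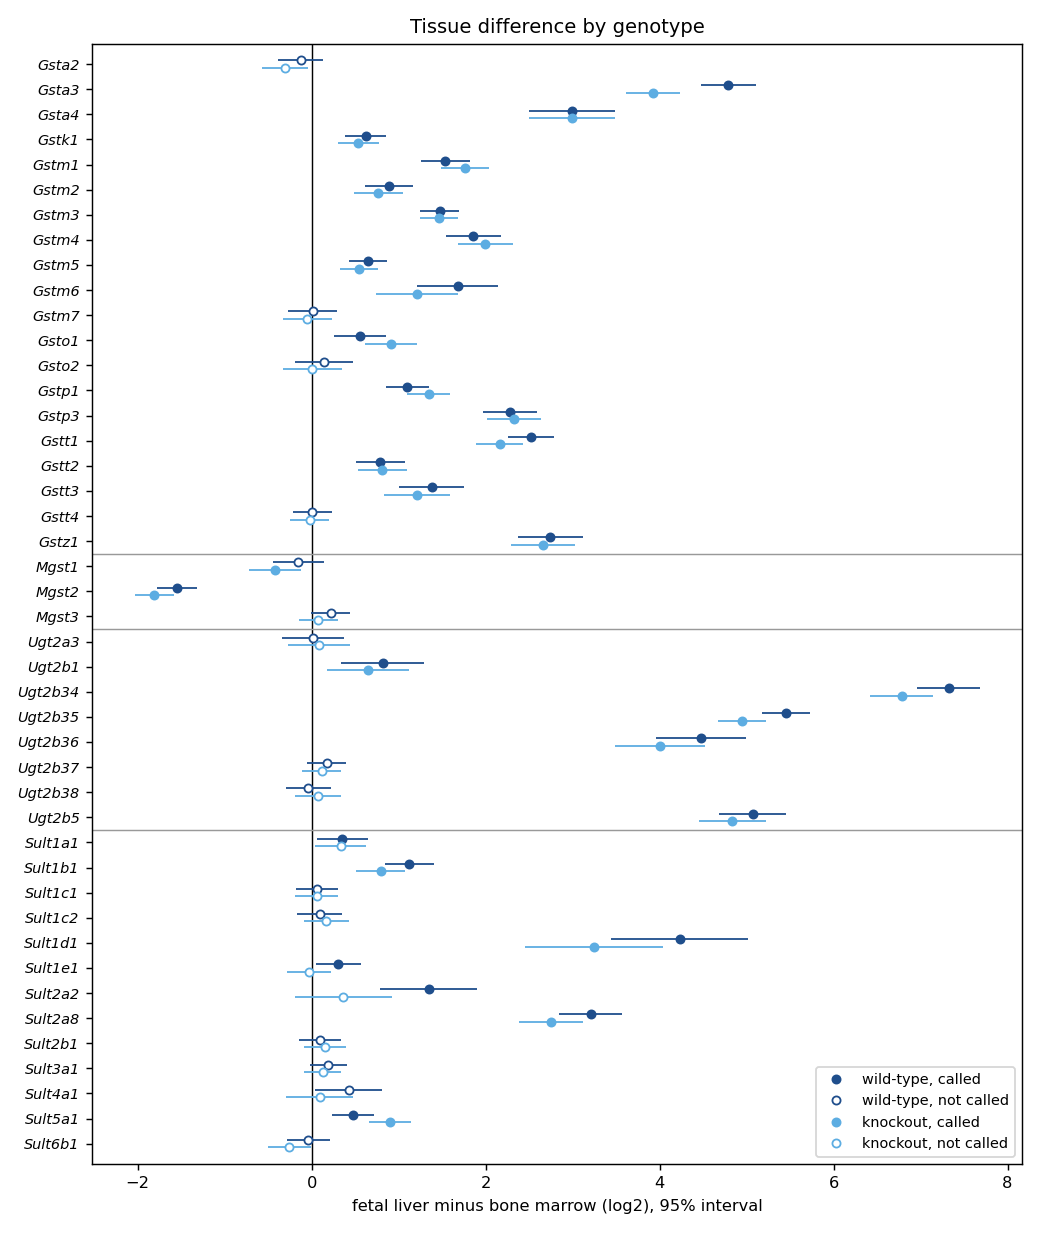
Difference between fetal liver and marrow (log2, horizontal axis) for each of the 44 genes in wild-type (dark) and knockout (light), with the 95% interval of the fit; filled points passed the test and open points did not. Ugt2b34 reaches 7.32 in wild-type, most glutathione S-transferases lie right of 0, and Mgst2 lies left of it in both genotypes.

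No difference between knockout and wild-type passed the test for these genes in either tissue. In fetal liver this comparison also carries the sex-linked difference. In marrow, 0 of 44 members passed (limma), where 0.253% of all genes did, and 4 (9.09%, against 5.30% of all genes) had an unadjusted p under 0.05: Gsta3 at 0.38 ± 0.14 and Gsta2, Sult1a1 and Sult5a1 at -0.34, -0.33 and -0.26. The 95% intervals of 43 of the 44 genotype differences in marrow lay within 1 of 0. The outermost bounds were -0.78 for Gsta4 and 1.02 for Sult1d1. The marrow arrays of the genotypes did not overlap for 16 members, against 40.3% of all genes. In the same arrays 8 of 9 megakaryocyte and platelet markers were lower in the knockout, with a median of -1.19. So was 1 of 8 stroma and bone markers, with a median of -0.32 over the list. With 0.253% of all genes passing in marrow, a count of 0 among 44 members does not set them apart from other genes.

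In fetal liver, 0 of 44 members passed (0.0769% of all genes did), and 9 (20.5%) had an unadjusted p under 0.05, 7 of them with a negative difference. Of all genes 17.9% had such a p (3251, of which 2062 negative), so the members' share is near that of the arrays as a whole. Sult2a8 differed by -0.71 ± 0.16 (95% interval -1.07 to -0.34, adjusted p = 0.131), Ugt2b35 by -0.51 ± 0.12 (adjusted p = 0.142), Gsta3 by -0.49 ± 0.14 (adjusted p = 0.154) and Sult2a2 by -0.79 ± 0.25 (adjusted p = 0.171). Gsta2, under 5 on all arrays, differed by -0.52 ± 0.12 (adjusted p = 0.131) and Sult1a1 by -0.35 ± 0.13 (adjusted p = 0.216). These 2 genes also had an unadjusted p under 0.05 and a negative difference in marrow (limma, adjusted p = 0.77 and 0.892). The share of all genes that did so in both tissues was not counted. The dim probe set shared by Gsta1, Gsta2 and Gm3776 gave -0.26 ± 0.11 in marrow and -0.04 ± 0.11 in fetal liver. Gstm1 lay the other way in fetal liver at 0.42 ± 0.12 (adjusted p = 0.161). Among all 44 genes 31 had a negative difference, with a median of -0.12, beside 9923 of 18194 genes and -0.02 over all genes. The fetal liver arrays of the genotypes did not overlap for 20 members, against 45.8% of all genes. The intervals of 41 members lay within 1 of 0, so a change of over 2-fold is outside the interval for these genes. For 24 of them the interval lay within 0.5 of 0, as for Mgst3 (-0.23 to 0.21).

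The 2 knockout fetal liver arrays differed in these genes. Replicate 1 of knockout fetal liver was the lowest of the 4 fetal liver arrays for 22 of the 44 genes, and for 30.1% of all genes. With replicate 2 left out, 486 genes passed in place of 14, among them Sult1d1 at -1.42 ± 0.19 (adjusted p = 0.0331) and Ugt2b35 at -0.66 ± 0.12 (adjusted p = 0.0426), with the lone knockout array assumed to vary like the other groups. The dimmer Sult1d1 probe set showed no such fall: that array was at 5.63, between the wild-type values of 5.85 and 5.59, and the genotype difference over all fetal liver arrays was -0.17 ± 0.14. Of the 10 hepatoblast and hepatocyte markers 7 had a positive difference in knockout fetal liver, with a median of 0.10 over the 10, and 0 passed. Their mean level was 12.22 on replicate 1 and 12.28 on replicate 2 of knockout fetal liver, and 12.12 and 12.20 on the wild-type fetal liver arrays. All 7 erythroid markers measured, the dim Hba-a1 included, had a positive difference, with a median of 0.22, and 0 of 7 passed. The part of these cells, and of the sex-linked difference, in the fetal liver values was not tested.

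The genotype difference in fetal liver was also set against that in marrow. No member passed (0 of 44, against 0.0275% of all genes), with 5 (11.4%, against 12.4% of all genes) at an unadjusted p under 0.05. Gsta3 had the lowest p, with 0.38 in marrow against -0.49 in fetal liver, a difference of -0.86 ± 0.20 (adjusted p = 0.222). Its dimmer probe set did not show opposite signs, with -0.04 in marrow, -0.39 in fetal liver and a difference of -0.34 ± 0.41. Gstt1, Gstt2, Gstt3 and Gstt4 lie on chromosome 10, as does Col18a1, with 25 to 28 coding genes between, and none of them passed in either tissue.

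**Figure D4:**
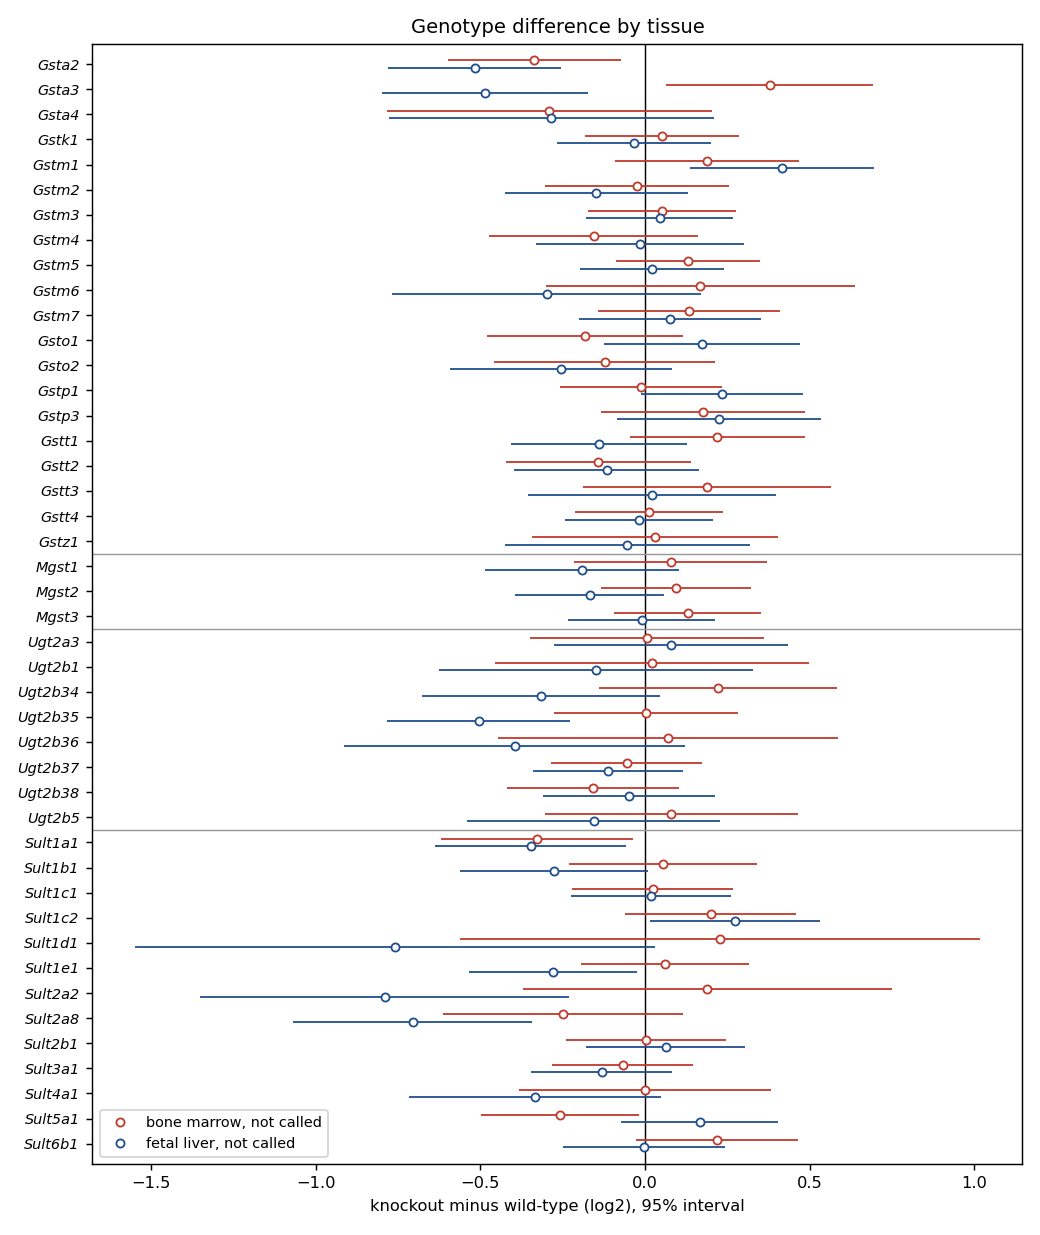
Difference between knockout and wild-type (log2, horizontal axis) for each of the 44 genes in marrow (red) and fetal liver (blue), with the 95% interval of the fit; all points are open because none passed. Sult1d1, Sult2a2 and Sult2a8 have the most negative values in fetal liver, and Gsta3 lies on opposite sides of 0 in the tissues.

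Of 87 further genes listed for the pathways around these enzymes, 80 were measured. In wild-type fetal liver 36 of them were higher and 18 lower than in marrow. Of all genes, 30.5% were higher and 19.2% lower in wild-type, and 28% and 19.6% in knockout. Several counts in the lists below lie near these shares. In glutathione synthesis and recycling, 6 of 15 were higher and 5 lower in wild-type, and 3 and 4 in knockout. Glutathione synthetase, Gss, rose from a mean of 6.93 to 10.02 in wild-type, a difference of 3.09 ± 0.11, and by 2.73 ± 0.11 in knockout. Gclc, the catalytic subunit of the preceding ligase, and Gsr, which reduces oxidised glutathione, were lower in fetal liver by -1.05 ± 0.10 and -1.25 ± 0.10 in wild-type. Gss thus moved the other way from Gclc and Gsr. Anpep, an aminopeptidase that cleaves a breakdown product of glutathione, was higher by 1.99 ± 0.13.

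Supply of the co-substrates was mixed as well. Of 10 sulfate donor genes 5 were higher and 1 lower in wild-type, and 5 and 2 in knockout, with the sulfate transporter Slc26a1 higher by 1.93 ± 0.13 and Bpnt1, a phosphatase that clears the spent donor, higher by 1.24 ± 0.10. Of 8 genes for UDP-glucuronic acid 4 were higher and 2 lower in wild-type, and 3 and 2 in knockout. Slc35d1, which carries UDP-glucuronic acid into the endoplasmic reticulum, was higher by 1.09 ± 0.10, while Ugdh, the enzyme that makes it, was lower at -0.53 ± 0.12 in wild-type and -1.03 ± 0.12 in knockout. Of 8 export genes 3 were higher and 3 lower in wild-type, and 4 and 3 in knockout. Abcc2, the pump that moves conjugates into bile, had a mean of 4.53 in wild-type marrow and 8.10 in wild-type fetal liver, a difference of 3.58 ± 0.09.

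Of 13 regulators measured, 6 were higher and 2 lower in wild-type, and 7 and 2 in knockout. Hnf4a, a hepatocyte transcription factor that is also on the hepatocyte marker list, was higher by 3.14 ± 0.17 in wild-type and 3.35 ± 0.17 in knockout. The xenobiotic receptors Nr1i2 and Ahr were higher by 2.55 ± 0.23 and 1.83 ± 0.11 in wild-type, and the estrogen receptor Esr1 was lower at -1.97 ± 0.11. Among 17 other detoxifying enzymes 9 were higher and 2 lower in wild-type, and 9 and 5 in knockout. The widest difference there was a fall: the retinal dehydrogenase Aldh1a1 had a mean of 11.14 in wild-type marrow and 5.00 in wild-type fetal liver, and the histamine methyltransferase Hnmt was lower at -2.56 ± 0.11. Of 9 genes related to the glutathione transferases by structure or family, 3 were higher and 3 lower in each genotype. Alox5ap, a leukocyte partner of lipoxygenase in the family of the microsomal transferases, was lower at -4.05 ± 0.12, as Mgst2 was. In the genotype comparisons 0 of the 80 genes passed, where 0.253% of all genes did in marrow and 0.0769% in fetal liver. The lowest adjusted p (limma) was 0.0655 for Hnmt in marrow and 0.0773 for Abcc2 in fetal liver.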

How the data were processed

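The authors' deposited table gives a linear RMA intensity for each of 45101 probe sets on the 8 arrays; RMA comes from the submitters' processing notes, its version being not given in these sources. RMA aligns the distributions of the arrays, so a shift of most genes would be removed. From these deposited intensities log2 was taken here. Platform annotation names 1 gene for 34958 probe sets, several for 932 and none here for 9211; 34754 of the 34958 were found in RefSeq (GRCm38.p6) by Entrez identifier, with 0 symbols changed. Where a gene had several probe sets (10 members), the brightest by mean stood for it, which gave 18194 genes.

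All 8 arrays entered 1 limma 3.58.1 model in R 4.3.3, with a mean for each group (4 residual and 4.86 prior degrees of freedom), two-sided, with Benjamini-Hochberg adjustment over all genes at 0.05 and no filter on low values, so that every member was tested. With genes kept only at 5 or more on at least 2 arrays, 13136 genes and 27 members remained. Errors are standard errors of the fit, and adjusted p-values are limma's. The fit was run on simulated data drawn from limma's own estimate of the spread, with independent normal noise. Such data check the code and cannot show whether that model suits these arrays. No detection calls were used. The members, lists, tests and named genes were chosen with earlier results of these data known. All members that passed, or had a group mean of 7 or more, are given with their arrays; from each pathway list the 4 genes with the largest moderated statistic could be named. Alternatives covered filters, probe set choice, normalization, variance model, array weights, arrays in the fit, replicate number as a block, threshold and each array left out.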

Additional observations from a re-analysis of the deposited data

How the results depend on the processing

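Of 1228 values of single genes under alternatives, 1172 kept their direction and side of the threshold, 47 no longer passed, 8 newly passed and 1 reversed: Sult1e1 in knockout, at -0.03, which was -0.17 to 0.10 with 1 array left out and above 0 without replicate 1 of knockout fetal liver. The count of members higher or lower in wild-type fetal liver was 29 and fell to 18 when genes needed a mean of 6 or more, since fewer members were then tested. With each array left out in turn it was 26 to 29, the count in knockout 25 to 27, that for genotype in fetal liver 0 to 2, and those for genotype in marrow and for the interaction 0. With a difference of at least 1 required as well, 3442 of 9044 genes passed between tissues in wild-type, 3201 of 8652 in knockout and 7 of 14 for genotype in fetal liver. Calls of single genes with a smaller difference were lost under this requirement too. The lists of lost calls given for Ugt2b1, Gsto1 and Mgst1 leave it out.

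Counts of genes that passed for genotype were unstable. In marrow 46 became 76 with a mean of 6 or more, 96 with a trended robust variance, 103 with array weights and 3 with marrow arrays alone, and 2 to 61 with 1 array left out (2 without either knockout marrow array, 6 without replicate 1 of wild-type marrow, 21 without either knockout fetal liver array). In fetal liver 14 became 42 with levels of 5 or more on at least 2 arrays, 73 with a mean of 6 or more, 31 with arrays centred on their medians, 276 with a trended robust variance, 5 with array weights and 4 with fetal liver arrays alone, and 4 to 486 with 1 array left out (486 without replicate 2 of knockout fetal liver, 4 to 6 without any other array). Centring gave 6 higher and 25 lower, in place of 5 and 9. For the interaction 5 became 12 and 20 with these filters, 8 with quantile normalization repeated and 63 with a trended robust variance, and 5 to 15 with 1 array left out (15 without replicate 2 of wild-type marrow). The causes were not tested.

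The replicate number does not pair the arrays: deviations of same-numbered arrays correlated at -0.12 to -0.00078 over the pairs of groups. With it as a replicate block, 28 members passed between tissues in wild-type and 27 in knockout, 0 for genotype in either tissue, and genes that passed for genotype in fetal liver went from 14 to 6. Signal limits the rest: 16 members stayed under 5 on all arrays, 4 of which passed in wild-type and 3 in knockout.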
